A study of Mus musculus with 2 samples.

Results

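T cells were examined in mouse tibialis anterior, a muscle of the lower leg, after injury by notexin, a snake venom phospholipase that kills myofibres and sets off their regeneration. The members were the barcodes annotated as T cells in the deposited table of cell types. They numbered 52 of 3494 typed barcodes at day 2 and 330 of 3385 at day 7, 382 of 6879 in all. Each time point was 1 single-cell RNA sequencing library of dissociated whole muscle, made from 1 C57Bl/6 mouse (C57BL/6J in the annotation). The sample labels describe both mice as 7-month-old females, whereas the annotation gives males aged 4 months at day 2 and 7 months at day 7. Y-linked transcripts were present in both libraries, at levels of 159.9 and 150.1 in CPM, the counts of a group scaled to 1e+06 in all, and Xist had 5 and 1 counts. No uninjured muscle was analysed here, and a difference between the time points cannot be told apart from a difference between the 2 mice or the 2 libraries.

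T cells carry an antigen receptor that signals through the CD3 chains. CD8 T cells kill target cells and release interferon gamma and chemokines, CD4 T cells mostly direct other leukocytes, and regulatory T cells, which depend on the transcription factor Foxp3, restrain inflammation. In injured muscle, regulatory T cells are known as a source of the growth factor amphiregulin, which acts on muscle progenitors, and gamma-delta T cells are a further lineage that can release interleukin 17 early in tissue damage.

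The T cells held 275326 counts at day 2 and 1673090 at day 7, with a median of 3286 counts per barcode (range 1432 to 79153) and 3363 (range 1021 to 55637). No T cell barcode was shared by the libraries, and 4 called barcodes of any type were. A share below is the percentage of barcodes with at least 1 count and has an exact Clopper-Pearson interval, and a level is the summed count of a group in CPM of its total. All intervals are 95% intervals, and with 1 library per time point they cover counting error only, so no replicate test was possible.

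The annotation was first set against the markers that define T cells. At day 7, Cd3e, Cd3d and Cd3g, the CD3 chains encoded side by side on chromosome 9 (Cd3e, ENSMUSG00000032093, chr9:44998740-45009627, GRCm38), were found in 51.2%, 67.6% and 71.2% of the T cells. Their levels were 217.6, 479.4 and 500.3 CPM. In the fibro-adipogenic progenitors (FAPs) of the same library, mesenchymal cells that should lack them, the shares were 0.123%, 0.369% and 0.492%, at a median depth of 8400 counts against 3363 in the T cells. Thinned to 1500 counts a barcode, which left 289 T cells, the 3 shares were 27.0%, 54.0% and 56.4%. Cd8b1, a chain of the CD8 coreceptor, was found in 33.9% of the T cells and 0.369% of the FAPs, Ctla4, an inhibitory receptor, in 24.8% and 0.246%, and Cxcr6, a chemokine receptor of tissue T cells, in 28.8% and 0.123%. At least 1 CD3 count was held by 271 of 330 T cells at day 7 (82.1%, 77.6 to 86.1%), and by 26 of 52 at day 2 (50%, 35.8 to 64.2%).

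Part of the day 2 class did not carry T cell markers. There, 17 of the 52 barcodes (32.7%, 20.3 to 47.1%) held 42 to 206 counts of the 9 basophil markers, which include the protease Mcpt8 and the histamine-making enzyme Hdc, and none of the 17 held a CD3 count. The other 35 held 0 or 1 basophil count, so the members fell into 2 groups with a wide gap between them. Of the 17, 4 also held 10 or more counts of mast cell proteases. A further 10 day 2 barcodes held 10 or more counts of the endothelial or the monocyte and macrophage list, 5 of them with a CD3 count, and 1 of the 52 had 79153 counts. At day 7 no T cell held more than 2 basophil counts, but 21 barcodes held 10 or more counts of endothelial genes, of which 1 had a CD3 count, and 7 held 10 or more of macrophage markers, of which 4 had one.

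**Figure D1:**
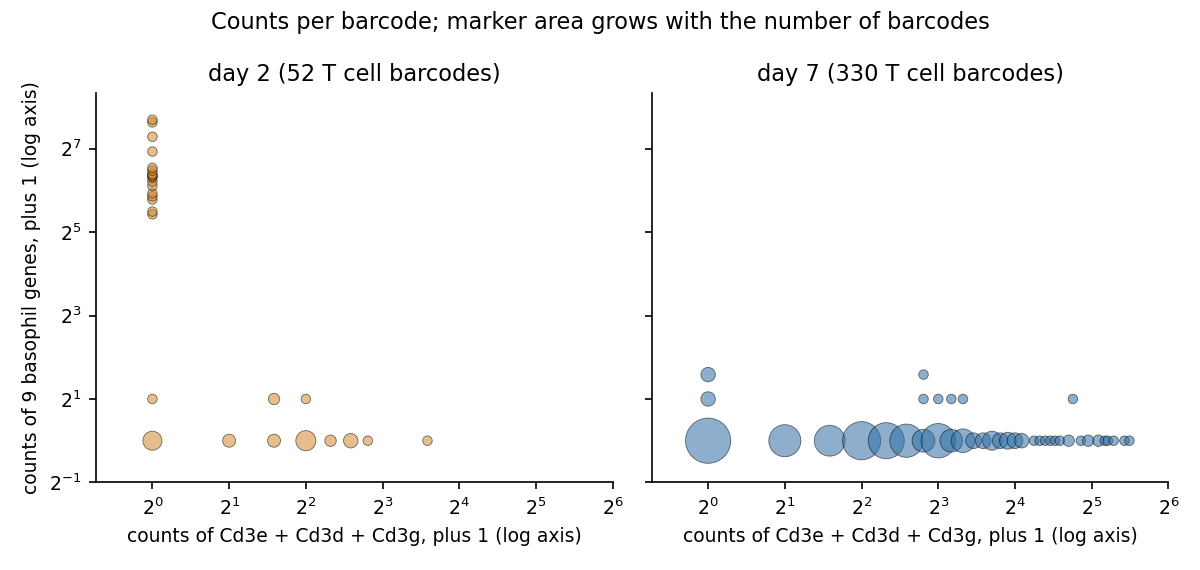
Counts of the 3 CD3 genes plus 1 (x axis) against counts of the 9 basophil markers plus 1 (y axis), both on log axes, in each barcode annotated as a T cell, at day 2 (52 barcodes) and day 7 (330 barcodes). At day 2, 17 barcodes lie between 42 and 206 basophil counts with no CD3 count, and at day 7 no barcode exceeds 2 basophil counts.

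For this reason each comparison of the time points is also given for a narrower set, called the CD3-positive set, which keeps barcodes with at least 1 CD3 count, fewer than 3 basophil counts and fewer than 10 endothelial or macrophage counts. It held 21 T cells at day 2 and 266 at day 7, with 58742 and 1148723 counts and medians of 2843 and 3350.5 counts.

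T cells were a larger share of the day 7 library. They were 1.49% (1.11 to 1.95%) of the typed barcodes at day 2 and 9.75% (8.77 to 10.8%) 5 days later, and the shares differed by 8.26 percentage points (7.18 to 9.37). In the CD3-positive set the shares were 0.601% (0.372 to 0.917%) and 7.86% (6.97 to 8.82%), a difference of 7.26 points (6.32 to 8.24). Natural killer (NK) cells, innate lymphocytes that share the killing genes of CD8 T cells, were 0.601% at day 2 and 3.37% at day 7, which is 2.77 points more (2.10 to 3.47). B cells were 0.830% and 0.561%, and the interval of their difference included 0 (-0.269 points, -0.692 to 0.148). The number of neutrophils in the denominator also differed: without neutrophils the T cell shares were 2.08% and 9.81%.

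The T cells of day 7 were then divided by their coreceptors. A barcode was placed in the CD8 gate if it held Cd8a or Cd8b1 (chr6:71322788-71337494) without Cd4 or Foxp3, in the CD4 gate if it held Cd4 (chr6:124864692-124888221) without the others, and in the Foxp3 gate if it held Foxp3 (chrX:7573644-7595245) without a CD8 gene. CD8 was the largest of the 3 gates, with 122 of 330 T cells (37.0%, 31.7 to 42.4%). The CD4 gate held 48 (14.5%, 10.9 to 18.8%) and the Foxp3 gate 19 (5.76%, 3.50 to 8.85%). The intervals of the 3 shares did not overlap. In FAPs the same gates held 0.492%, 0.738% and 0.123% of 813 barcodes. Another 6 T cells held an unusual combination, and 135 (40.9%, 35.6 to 46.4%) held none of these transcripts, 86 of them with a CD3 count. Both CD8 chains were found in 85 barcodes, Cd8a alone in 16 and Cd8b1 alone in 27, and 16 of the 22 barcodes with Foxp3 also held Cd4.

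The gate shares moved with depth. The median depth was 3517.5 counts in the CD8 gate, 3053.5 in the CD4 gate, 5335 in the Foxp3 gate and 2672 in the ungated cells. Thinned to 1500 counts, the CD8, CD4 and Foxp3 gates held 34.6%, 10.0% and 3.11% of 289 T cells, and 51.9% were ungated. In the CD3-positive set of day 7 they held 43.6%, 15.4% and 7.14%, and 31.6% stayed ungated. At day 2 the CD3-positive set had 5 CD8, 4 CD4, 2 Foxp3 and 10 ungated barcodes of 21. The differences between the time points in these shares all had intervals that included 0, for example 19.8 points for CD8 (-4.33 to 36.6).

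**Figure D2:**
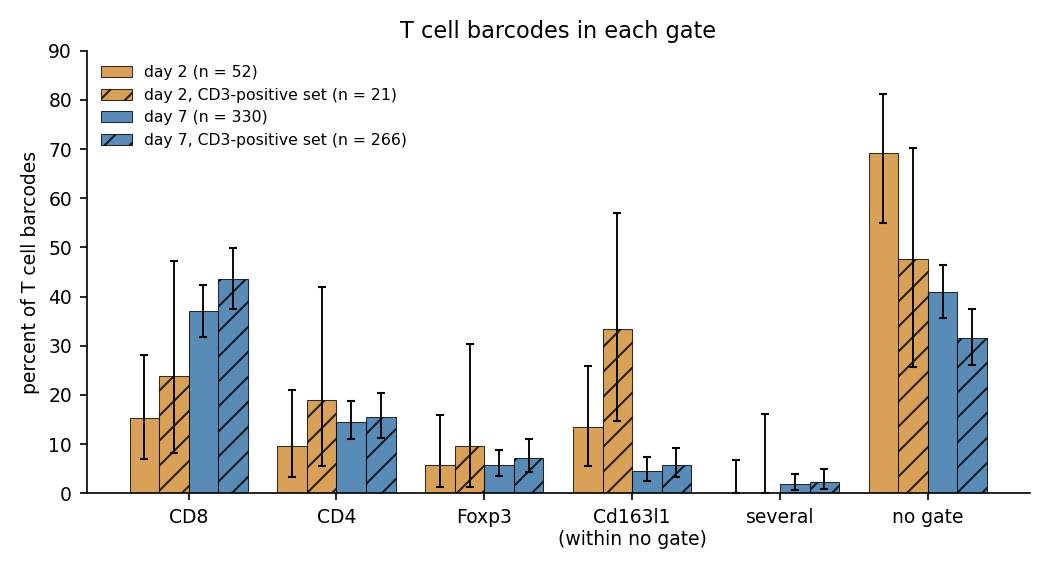
Percentage of T cells in each gate (x axis: CD8, CD4, Foxp3, Cd163l1 within the ungated cells, several and no gate) with 95% Clopper-Pearson intervals (bars), for the annotated T cells and the CD3-positive set of each library. At day 7 the CD8 gate holds 37.0% of all T cells and 43.6% of the CD3-positive set, above the CD4 gate at 14.5% and 15.4%.

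A small set of the ungated T cells was marked by Cd163l1. This gene of the scavenger receptor family is known from gamma-delta T cells (chr7:140218267-140231145). It was found in 15 of 330 T cells at day 7 (4.55%, 2.57 to 7.39%) and in 7 of 52 at day 2. All 22 held a CD3 count, and none held Cd4, Cd8a, Cd8b1 or Foxp3. No FAP of day 7 held it, 0 of 813. The receptor genes that define gamma-delta T cells, Trdc and the Tcrg genes, were not analysed here, so the cells are called by Cd163l1 alone.

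The comparisons below sum the counts of each gate. A gene was called higher or lower if its levels differed by more than 2-fold with a counting interval beyond no change, among genes with a mean of at least 50 CPM. A gene under 50 CPM in 1 group passes this filter only through the other group, and can then be called in that direction only. Fold changes are given as log2 ratios with their intervals, or as folds where 1 side had few counts.

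Cells of the CD8 gate were richer in killing and chemokine genes than cells of the CD4 gate. Of 2971 genes, 110 were higher (3.7%) and 140 lower (4.71%). Eomes, a transcription factor of effector and memory CD8 cells, had 126 counts in the CD8 gate and none in the CD4 gate, which is at least 12.7-fold higher against a floor of 3 counts. Gzmk, encoding granzyme K, had 124 and 3 counts (12.5-fold, 4.17 to 61.2). Ctsw, a protease of killer lymphocytes, was at 317.7 CPM against 29.1 (log2 ratio 3.45, 2.20 to 5.09), and 68.0% of CD8 gate cells held it against 8.33%. Ly6c2, a surface protein of effector and memory CD8 cells, was at 939.0 CPM against 99.0 (3.25, 2.55 to 4.04), although reads of Ly6c2 and its near-identical neighbour Ly6c1 may be divided between them. The chemokine Ccl4 was also higher, at 193.1 CPM against 23.3 (3.05, 1.65 to 4.95), again with a close paralogue, Ccl3. Phgdh, the first enzyme of serine synthesis, had 81 and 2 counts (12.2-fold, 3.27 to 102.5). These genes separated the gates in both level and share of cells.

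Of the 14 genes listed as cytotoxic effectors, 9 passed the filter on low values, 5 were higher in the CD8 gate and none was lower, with a median log2 ratio of 1.77 against 0.03 over all genes tested. Ccl5, a chemokine that draws T cells and monocytes, was at 6904 CPM against 1246 (2.47, 2.27 to 2.68), and 97.5% of CD8 gate cells held it. Nkg7, a protein of cytotoxic granules, was at 1386.5 against 407.6 CPM (1.77, 1.41 to 2.14). Xcl1, which attracts cross-presenting dendritic cells, had 132 and 8 counts (2.31, 1.29 to 3.56). The transcription factors Runx3, which sets the CD8 lineage, and Tox, of chronically stimulated T cells, were higher by 1.05 and 1.06 on the log2 scale. In the CD3-positive set they stood at 0.95 and 0.98, under 2-fold. Ifng, encoding interferon gamma, was at 712.6 and 687.1 CPM, a log2 ratio of 0.05 (-0.25 to 0.36), and did not pass. Gzmb, encoding granzyme B, was at 229.9 and 238.7 CPM (-0.05, -0.57 to 0.49), but 40 of the 41 counts in the CD4 gate came from 1 barcode.

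Lower in the CD8 gate, and so higher in the CD4 gate, were genes of regulatory CD4 cells, whereas none of the 13 tested early activation genes passed in either direction. All 6 tested members of the regulatory T cell list were lower in the CD8 gate, with a median log2 ratio of -2.01, although Foxp3 itself was kept out of both gates. Ctla4 was at 112.3 CPM in the CD8 gate and 361.0 in the CD4 gate (-1.68, -2.21 to -1.16), and Ikzf2, encoding Helios, at 56.2 and 285.3 (-2.34, -3.03 to -1.67). Tnfrsf4, the costimulatory receptor OX40, was at 24.6 and 192.2 CPM (-2.97, -3.98 to -2.03). Izumo1r, the folate receptor 4 of regulatory and anergic CD4 cells, had 3 counts in the CD8 gate and 22 in the CD4 gate, at 5.27 and 128.1 CPM. Areg, encoding amphiregulin, had 7 and 60 counts (-4.83, -6.20 to -3.70), but 3 barcodes held 48 of the 60. Klrg1, a receptor of effector and tissue regulatory cells, had a log2 ratio of -3.26 (-4.54 to -2.12), with 20 of its 26 counts in the CD4 gate in 3 barcodes. Gata3 and Maf, transcription factors of helper and regulatory cells, were at -1.82 and -1.88. The remaining genes of the ranking, Got1 and Capg, an amino acid transaminase and an actin-capping protein, stood at -2.69 and -2.57.

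Macrophage transcripts also differed between these gates. All 4 tested genes of the monocyte and macrophage list were lower in the CD8 gate. Apoe was at 338.7 CPM in the CD8 gate and 3133 in the CD4 gate, and Lyz2 at 119.3 and 1002, but 1 barcode held 362 of the 538 Apoe counts and 115 of the 172 Lyz2 counts of the CD4 gate. Within the CD3-positive set, which leaves out barcodes of 10 or more macrophage counts, the log2 ratios were -0.06 and -0.14.

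Cells of the Foxp3 gate were richer in genes of the regulatory T cell list than cells of the CD4 gate. Against the CD4 gate, 168 of 3011 genes were higher (5.58%) and 140 lower (4.65%), and the 19 cells had 123991 counts. Median-of-ratios scaling, which moved the log2 ratios by -0.15, gave 99 higher and 194 lower. Of the 11 regulatory T cell genes other than Foxp3, 8 passed the filter on low values, 6 were higher and none was lower, with a median log2 ratio of 1.3 against 0.13 over all genes tested. Il2ra, the high-affinity chain of the interleukin 2 receptor, was at 209.7 CPM against 52.4 (2.00, 0.86 to 3.28). Ikzf2 was at 709.7 against 285.3 (1.31, 0.80 to 1.85), and Ctla4 at 879.1 against 361.0 (1.28, 0.82 to 1.76), and each was found in 89.5% of the Foxp3 cells. Without T cells holding 3 or more counts of another cell type's list, which left 4 and 17 cells in the gates, Ctla4 and Tnfrsf18 no longer passed (0.85 and 1.49).

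Tnfrsf4 was at 1000.1 CPM in the Foxp3 gate and 192.2 in the CD4 gate (2.38, 1.82 to 2.98), and it was found in 15 of the 19 cells, with 56 of its 124 counts in 1 barcode. Tnfrsf9, the costimulatory receptor 4-1BB, was higher by 2.33 (1.16 to 3.67), and Tnfrsf18, the receptor GITR, by 1.24 (0.65 to 1.86). Il10, an inhibitory cytokine, had 21 counts against 1 (29.1-fold, 4.68 to 1203), but 17 of the 21 came from 1 barcode and all from 3. Of the ranked genes, Phgdh had 31 and 2 counts (21.5-fold, 5.46 to 185.1), Cxcl10, a chemokine induced by interferon, had 48 and 15, of which 32 lay in 1 barcode, and Nfil3, a transcription factor, was at 282.3 and 64.1 CPM (2.14, 1.13 to 3.27). Smdt1 and Mpc1, parts of the mitochondrial calcium and pyruvate carriers, were higher by 1.95 and 1.93 and were each found in 78.9% of the cells.

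The genes linked to regulatory T cells of injured tissue were found in part of this gate. Klrg1 was found in 52.6% of the Foxp3 gate and 12.5% of the CD4 gate, at 209.7 and 151.4 CPM, a log2 difference that did not pass (0.47, -0.37 to 1.31). Il1rl1, the receptor for interleukin 33, was at 96.8 and 40.8 CPM and did not pass either (1.25, -0.21 to 2.83). Areg had 26 counts in the Foxp3 gate, 25 of them in 3 barcodes, and 60 in the CD4 gate, at 209.7 and 349.4 CPM (-0.74, -1.46 to -0.05), and did not pass. Among all 22 barcodes with Foxp3, 11 held Klrg1, 10 held Il1rl1 and 5 held Areg. Those barcodes were 50%, 45.5% and 22.7% of the Foxp3 barcodes, and 40.7%, 50% and 20% of the 27, 20 and 25 barcodes that held each gene.

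Of the 5 tested cytotoxic effectors 4 were lower in the Foxp3 gate, as were 2 of the 5 tested genes of naive and central memory cells, and none was higher. Ifng was at 96.8 CPM against 687.1 (-2.83, -3.82 to -1.97), on 12 counts of which 9 lay in 1 barcode, and Ccl5 at 435.5 against 1246 (-1.52, -1.98 to -1.08). Tcf7, a transcription factor of naive and memory T cells, had 4 counts against 41 (-2.89, -4.83 to -1.42), and Il7r, the interleukin 7 receptor of memory cells, had 3 against 27 (6.50-fold lower, 2.00 to 33.5). Cxcr6 had 1 count against 22, and Klrk1, the activating receptor NKG2D, none against 37, at least 8.90-fold lower. Among the same 4 and 17 cells, 3 of the 17 named genes with more than 3 counts on a side stayed past 2-fold in their direction, Ifng turned direction, on 9 and 11 counts (1.56, 0.11 to 2.97), and Klrk1 and Tcf7 had no count in the 4 cells against 5 and 8, too few for a fold. Of the 14 early activation genes, 13 were tested and 6 were lower. The antigen presentation genes H2-Eb1, H2-Aa, H2-Ab1 and Cd74 and the macrophage genes Apoe and Lyz2 led the ranking of lower genes. For H2-Aa these were 3 and 149 counts, with 94 of the 149 in 1 barcode. In the CD3-positive set their log2 ratios lay between -1.75 (H2-Ab1) and 0.14 (Lyz2), where those of all cells lay between -5.17 and -3.18.

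The Cd163l1 cells were also set against the coreceptor-positive cells. They numbered 15, so the number of genes called cannot be set beside that of the other comparisons. Against the CD8 and CD4 gates together (170 cells), the 15 cells, with 51493 counts, had 331 of 3051 genes higher (10.8%) and 176 lower (5.77%). Median-of-ratios scaling, which moved every log2 ratio by -0.30, gave 198 higher and 298 lower instead. Blk, a kinase gene, had 10 counts against none in 741519 and Sox13, a transcription factor known from gamma-delta T cells, had 6 against none, at least 48.0-fold and 28.8-fold higher. Both passed the filter on low values only through the Cd163l1 cells, so they could only be called higher. Tmem176b and Tmem176a, neighbouring membrane genes known from interleukin 17 lineages, were at 873.9 against 32.4 CPM (4.75, 4.01 to 5.53) and 679.7 against 36.4 (4.22, 3.46 to 5.0). They were found in 93.3% and 86.7% of the Cd163l1 cells and in 5.29% and 7.06% of the others. Ramp1, a subunit of the receptor for the nerve peptide CGRP, was at 776.8 against 40.5 CPM (4.26, 3.54 to 5.0).

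Of the 9 tested cytokine receptors 4 were higher in these cells and none was lower, and of the 6 tested chemokine and homing receptors 3 were higher and 1, Cxcr3, was lower (1 count against 110). Il7r was at 757.4 CPM against 132.2 (2.52, 1.94 to 3.07), Il2ra at 349.6 against 27.0 (3.70, 2.69 to 4.69), and Il1r1, the interleukin 1 receptor, had 9 counts against 1 (129.6-fold, 18.0 to 5681). Il2ra and Il1r1 passed the filter on low values only through the Cd163l1 cells, so they could only be called higher. The chemokine receptors Ccr2 and Cxcr6 were higher by 2.08 (1.2 to 2.88) and 1.76 (1.10 to 2.37). Gpr183, an oxysterol receptor that guides lymphocytes, and the transcription factors Klf4 and Maf were at 2.87, 2.40 and 2.06. Il17a, encoding interleukin 17A, had 10 counts against 14, but all 10 came from 1 of the 15 cells.

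Most cytotoxic effector genes were lower in them. Ccl5 had no count against 4148, at least 96.0-fold lower, and Ifi27l2a, an interferon-stimulated gene, none against 1249, at least 28.9-fold lower. Nkg7 had none against 860 (at least 19.9-fold), Ly6c2 none against 552 (at least 12.8-fold) and Ifng none against 524 (at least 12.1-fold). Ms4a4b, a T cell membrane protein, had 4 against 733 (-3.67, -5.55 to -2.31). Of the 9 tested cytotoxic effectors, 8 were lower and 1 was higher, Klrk1, with 17 counts against 110 (1.15, 0.32 to 1.90). The costimulatory and adhesion genes Cd2, Cd28, Cd5 and Cd27 had no count in the 15 cells against 253, 298, 116 and 101, whereas none of the 4 genes of the T cell receptor complex passed in either direction.

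**Figure D3:**
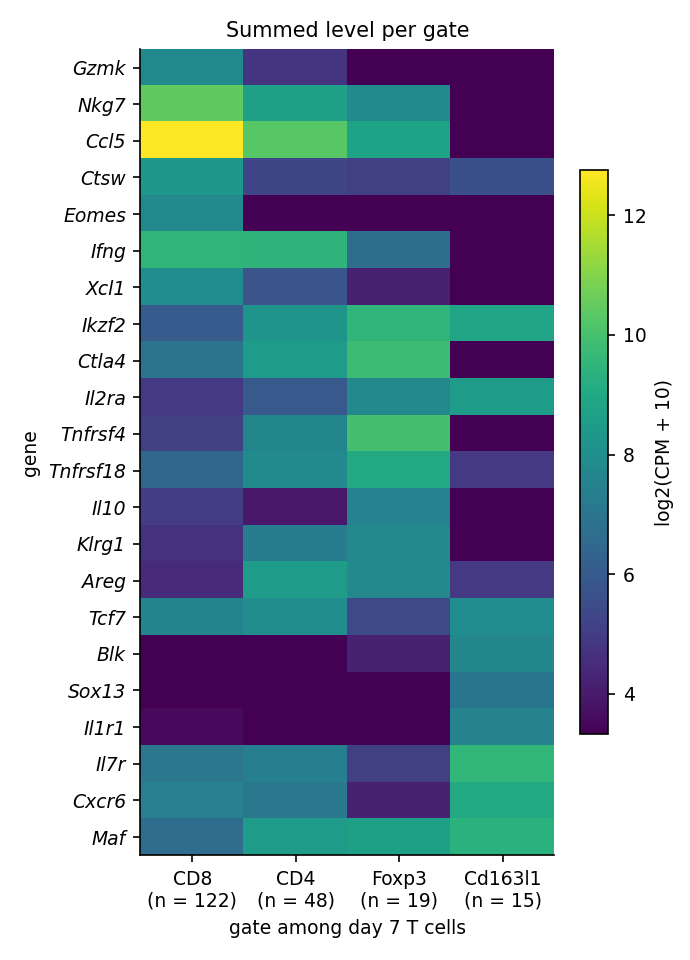
Level of 22 genes (rows) in the CD8 gate (122 cells), CD4 gate (48), Foxp3 gate (19) and Cd163l1 gate (15) of the day 7 T cells, as log2(CPM + 10) of the summed counts. Eomes and Gzmk are highest in the CD8 gate, Tnfrsf4 is highest in the Foxp3 gate, and Blk, Il1r1 and Il2ra are highest in the Cd163l1 gate, which lacks Ccl5 and Nkg7.

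Clustering of the 330 day 7 T cells gave 10 groups, whose leading genes describe them and are no test. The genes that define the gates and the endothelial and macrophage counts were not left out of it. Overlaps of the clusters with those sets are therefore no independent check. Cluster 3, of 37 cells, was regulatory T cell-like: it was led by Klrg1, Tnfrsf4, Tnfrsf9, Areg, Izumo1r and Dusp4, all 5 regulatory markers were detected, and it held 21 of the 22 barcodes with Foxp3. Klrg1 was found in 48.6% of its cells and 3.07% of the others, and Areg in 35.1% and 4.10%. The cluster also held 10 CD4 gate cells. Cluster 5, of 33 cells, was led by Cd163l1, Ramp3, Ramp1, Igf1r, Tmem64 and Il7r. It held all 15 Cd163l1 cells, none of its cells was in a gate and 27 had a CD3 count, and Il7r was found in 87.9% of its cells against 27.6% elsewhere. It was given no cell type name, since Trdc and the Tcrg genes, the receptor markers that a gamma-delta name would rest on, were not analysed here.

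Clusters 1, 2, 4, 6 and 7 held most of the CD8 gate. Cluster 1 (62 cells, 46.8% in the CD8 gate) was led by Ifng, Sorl1, Xcl1, Ccl5, Arl4d and Ptk2b, and cluster 2 (59 cells, 54.2%) by Ccl5, Klrd1, Il21r, Iqgap2, Tsc22d3 and Gm26740. Cluster 4 (35 cells, 45.7%) was led by Satb1, Neurl3, Sirt1, Ly6c2, Arid5a and Gem. Cluster 6 (33 cells, 69.7%) was led by Nrn1 and the inhibitory receptor gene Pdcd1 together with the mitotic genes Aspm, Ccnb1, Ube2c and Kif11, and its median depth was 7772 counts. Cluster 7 (26 cells, 73.1%) was led by Daxx, Ifit1, Itm2a, Tpm2, Rsad2 and Ifit3. Of these Ifit1, Rsad2 and Ifit3 are antiviral genes induced by interferon, and Tpm2 encodes a muscle tropomyosin. Ifit1 was found in 69.2% of its cells and 14.5% of the other T cells.

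The last 3 clusters were small. Cluster 9 had 14 cells, 9 in the CD4 gate, and was led by Il17a. It held 61 of the 76 Il17a counts of day 7, in 14.3% of its cells. Of the 76 counts, 48 came from 1 cell and 71 from 3 cells, not all in the cluster, and the whole CD4 gate held 14. Cluster 8 consisted of exactly the 21 barcodes with 10 or more endothelial counts and was led by endothelial genes (Ccnd1, Esam, Gng11, Mgll, Fabp4, Gpihbp1), with a median of 12290 counts and 1 CD3-positive barcode. Cluster 10 (10 cells) held all 7 macrophage-count barcodes and was led by Gpnmb, Mpeg1, Fcgr1, Clec12a, Trem2 and Csf1r. Whether these barcodes hold a T cell together with another cell was not tested. Clusters 3, 5 and 8 stayed together in full at the coarser resolution (6 clusters) and at the finer one (11 clusters).

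**Figure D4:**
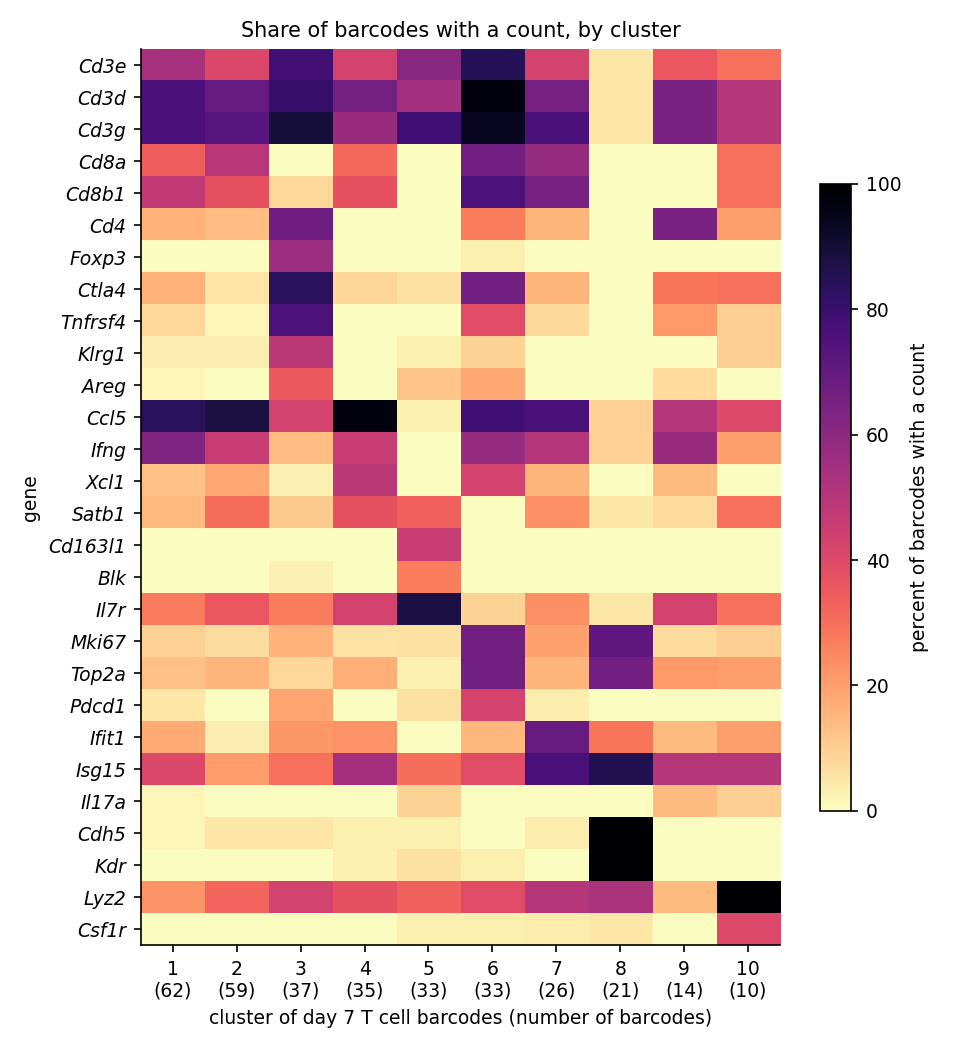
Percentage of barcodes with at least 1 count of each gene (rows) in the 10 clusters of day 7 T cells (columns), as colour. Cluster 3 stands apart in Foxp3 and Klrg1, cluster 5 in Cd163l1, cluster 7 in Ifit1, cluster 8 in endothelial genes and cluster 10 in macrophage genes.

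Mitotic transcripts were found in part of the T cells. At least 3 counts of the mitotic genes Mki67, Top2a, Birc5 and Cdk1 were held by 44 of the 330 T cells (13.3%, 9.86 to 17.5%), but 18 of these were among the 28 barcodes with 10 or more endothelial or macrophage counts. Without those 28 the share was 26 of 302 (8.61%, 5.70 to 12.4%). It was 15 of 122 in the CD8 gate (12.3%), 3 of 48 in the CD4 gate (6.25%) and 3 of 19 in the Foxp3 gate (15.8%), and the 3 intervals overlapped. Thinned to 1500 counts, 11 of 289 T cells passed (3.81%), with 6 of 114 in the CD8 gate. None of 40 passed in the CD4 gate and none of 19 in the Foxp3 gate. A floor of 3 barcodes would be 7.5% and 15.8% of them, which is a rough limit and not a Clopper-Pearson interval.

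The comparison of day 7 with day 2 over all annotated T cells was led by basophil genes on the lower side. Of 3208 genes, 247 were higher (7.7%) and 305 lower (9.51%) at day 7. All 10 tested genes of the basophil list were lower. Hdc had 632 counts at day 2 and 7 at day 7, and Mcpt8 167 and 0. Il4, encoding the type 2 cytokine interleukin 4, had 213 and 2, and Cpa3, a mast cell and basophil protease, 242 and 1. Cyp11a1, a steroid-making enzyme of basophils and mast cells, had 202 and 0, at least 409.2-fold lower, Irg1, which makes itaconate, 336 and 0, and Ifitm1, an interferon-induced membrane protein, 490 and 2. Without the 17 basophil-marker barcodes 237 of 3214 genes were higher (7.37%) and 278 lower (8.65%), and the lower side was led by Pgf, Cxcl1, 2200002D01Rik, Cd63, Hbegf and Lrrc32. The 35 remaining day 2 barcodes held 201838 counts, of which 79153 lay in 1 barcode and 58742 in the 21 of the CD3-positive set. How the counts of the leading genes were spread over the 35 was not tested. Cxcl1, which attracts neutrophils, had 131 counts in the 35 remaining day 2 barcodes and 38 at day 7, and Pgf, a growth factor of vessels, 92 and 26. Ccl4 had 1666 counts at day 2, in 17 barcodes, and 150 at day 7, so its log2 ratio was -6.08 over all T cells and 2.59 in the CD3-positive set. Among the genes that led the higher side, H2-Ab1, H2-Aa, H2-Eb1 and Apoe are genes of antigen-presenting cells. H2-Ab1 had 593 counts against 4 over all T cells, a log2 ratio of 4.61, and 2.45 in the CD3-positive set. The set's other values were 0.13 for H2-Aa, 0.59 for H2-Eb1 and 2.70 for Apoe.

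Within the CD3-positive set, 177 of 2941 genes rose from day 2 to day 7 (6.02%) and 258 fell (8.77%). Median-of-ratios scaling, which moved the log2 ratios by 0.22, gave 305 that rose and 177 that fell. The 3 CD3 genes, which chose the set, were not tested, and Cd3e was at 374.5 CPM at day 2 and 311.7 at day 7. Effector genes rose. Of the 8 tested cytotoxic effectors, 7 rose and none fell, with a median log2 ratio of 2.22 against -0.06 over all genes tested. Ifng rose from 68.1 CPM, on 4 counts, to 522.3 CPM, on 600 counts (2.94, 1.58 to 4.82), and it was found in 9.52% and 44.4% of the cells. In NK cells Ifng was at 265.1 and 706.9 CPM. Nkg7 rose from 238.3 to 875.8 CPM (1.88, 1.12 to 2.75). Ccl5 rose from 1396 to 4260.4 CPM (1.61, 1.29 to 1.94), although its 82 counts at day 2 lay in 9.52% of the cells. Xcl1 went from no count to 245, at least 4.18-fold higher, and Gzmb had 3 and 196 (3.34-fold, 1.13 to 16.3), a rise that did not pass with a mean over cells in place of the sum (log2 ratio 1.37, -0.20 to 3.66).

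Of the 3 genes of the CD8 lineage list, 2 rose and none fell, and of the CD4 lineage list only Cd4 was tested and fell, from 204.3 to 101.0 CPM (-1.02, -1.88 to -0.02). With median-of-ratios scaling Cd4 stood at -0.80, under 2-fold. Cd8a rose from 85.1 to 269.9 CPM (1.66, 0.43 to 3.30) and Cd8b1 from 136.2 to 421.3 (1.63, 0.64 to 2.85). Ly6c2 went from no count to 639 counts, which is at least 10.9-fold. Tbx21, encoding T-bet, which drives the interferon gamma programme, and Cxcr3, the receptor for interferon-induced chemokines, each had 1 count at day 2 and 159 at day 7 (8.13-fold, 1.44 to 323.1). AW112010, a transcript known from activated lymphocytes, rose from 119.2 to 1194 CPM (3.33, 2.28 to 4.64). It was also at 24.9 and 164.0 CPM in FAPs, 16.4 and 279.6 in monocytes and macrophages and 1525 and 2066 in NK cells. The number of day 2 cells, 21, limited each of these values.

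The heat shock genes Hspa1a and Hspa1b, whose near-identical sequences make their separate counts uncertain, rose from 646.9 CPM each to 5958 and 4984 (3.20, 2.74 to 3.70 and 2.95, 2.49 to 3.45). Hspa1a was also at 276.2 CPM in NK cells at day 2 and 7427 at day 7, and at 767.5 and 3344 in monocytes and macrophages, whereas FAPs had 889.5 and 941.1.

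Among the named genes that fell were Cd163l1, Blk and Il1r1, and genes of the naive and central memory list. Cd163l1 fell from 595.8 to 52.2 CPM (-3.51, -4.14 to -2.87), and the share of CD3-positive cells with it from 33.3% (14.6 to 57.0%) to 5.64% (3.19 to 9.13%), a difference of -27.7 points (-51.5 to -8.63). The kinase gene Blk and the interleukin 1 receptor Il1r1 had 6 counts each at day 2 and 12 and 13 at day 7 (-3.29 and -3.17). Tmem64, a membrane protein gene, fell by 3.25 on the log2 scale (-3.86 to -2.61), and Rora, a transcription factor of innate-like lymphocytes, fell by 1.73 (-2.14 to -1.3). Of the 6 tested genes of naive and central memory cells, 4 fell, with a median log2 ratio of -1.33. Satb1, a chromatin organiser of immature and naive T cells, fell from 680.9 to 114.9 CPM (-2.57, -3.09 to -2.02). Lef1 and Tcf7, transcription factors of naive cells, had log2 ratios of -2.12 (-2.97 to -1.17) and -1.23 (-1.84 to -0.57), and Il7r of -1.43 (-1.99 to -0.81). With a mean over cells Tcf7 and Il7r stood at -0.93 and -0.90, under 2-fold. The adhesion gene Emb and the transcription factors Fosl2 and Crem stood at -2.42, -2.41 and -2.03, and the costimulatory receptor Icos at -1.72. Several of these levels were also lower at day 7 in other classes. In NK cells Satb1 was at 762.3 and 272.7 CPM at the 2 time points, Emb at 596.6 and 242.4, Fosl2 at 972.2 and 339.3 and Crem at 972.2 and 278.7. Rora was at 198.9 and 66.7 CPM in NK cells, and Tmem64 at 55.2 and 22.2, on 5 and 11 counts. In monocytes and macrophages Emb was at 259.6 and 105.8 CPM, Fosl2 at 345.9 and 85.0 and Crem at 200.8 and 38.2, whereas Rora was at 7.46 and 15.7 and Tmem64 at 8.13 and 9.71. In FAPs Fosl2 was at 150.2 and 68.8 CPM and Crem at 34.9 and 18.8, but others were higher at day 7, with Satb1 at 4.48 and 13.8 CPM, Emb at 3.70 and 25.0, Tmem64 at 17.9 and 79.5 and Rora at 76.7 and 167.7.

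These differences were also taken among the CD3-positive cells without Cd163l1. In those 14 cells at day 2 and 251 at day 7, the log2 ratios were -2.99 (-3.53 to -2.42) for Satb1, -3.29 (-4.12 to -2.40) for Tmem64, -2.61 for Lef1, -1.73 for Tcf7 and 2.47 (1.11 to 4.35) for Ifng. Those of Rora and Il7r were -0.81 and -0.79, under 2-fold, and Cd8a, at 1.2 (-0.04 to 2.83), no longer passed, whereas Cd8b1 did (1.16, 0.17 to 2.38).

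**Figure D5:**
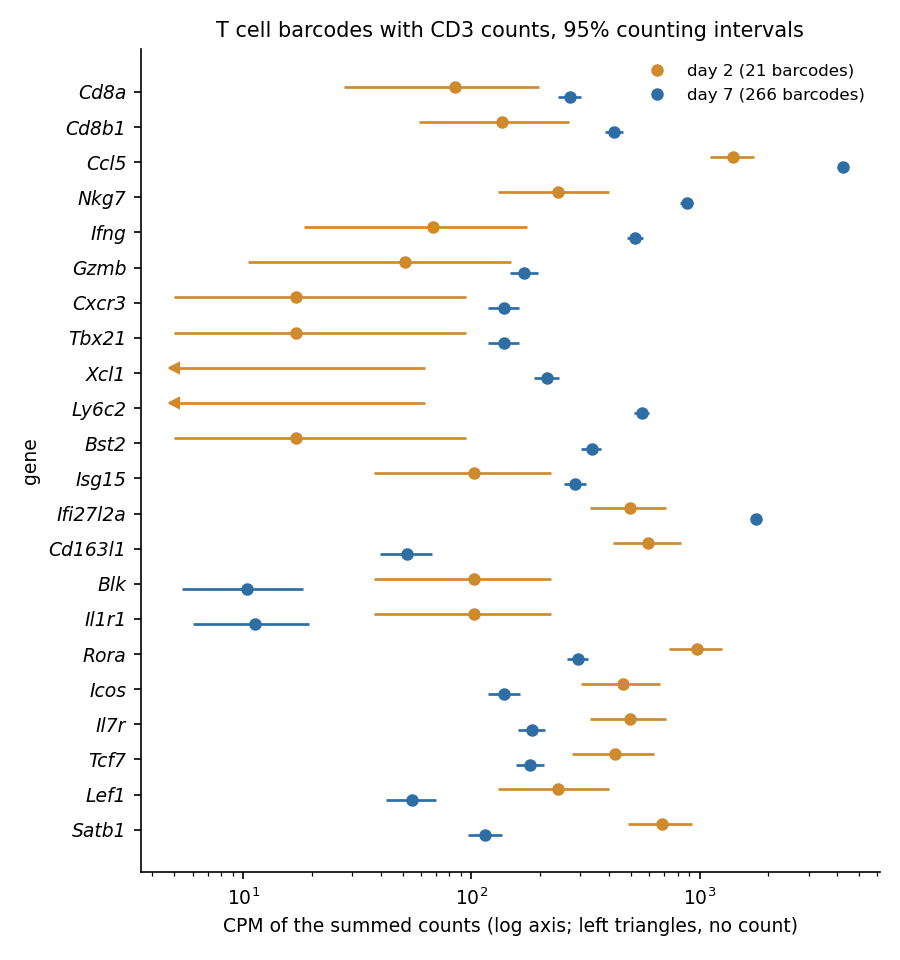
Level of named genes in the CD3-positive T cells at day 2 (21 cells) and day 7 (266 cells), in CPM on a log axis, with 95% counting intervals (lines, drawn from 5 CPM upward). Left-pointing triangles mark genes with no count, such as Ly6c2 and Xcl1 at day 2, and Ifng, Nkg7 and Ifi27l2a lie higher at day 7 while Cd163l1, Satb1 and Lef1 lie lower.

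Interferon-stimulated genes were among those that rose. The 10 listed genes together were at 970.3 CPM (734.9 to 1257) in the CD3-positive set at day 2 and 3083 (2983 to 3187) at day 7. In the near-empty droplets of the libraries, which hold free RNA, the list was at 812.1 and 1442 CPM, so the day 2 interval included the level of free RNA. Of the 6 that passed the filter, 3 rose, with a median log2 ratio of 1.64. Bst2, which tethers budding viruses to the cell, had 1 count at day 2 and 386 at day 7 (19.7-fold, 3.52 to 781.6). Isg15, a ubiquitin-like modifier, rose from 102.1 to 283.8 CPM (1.47, 0.34 to 2.93), but without the Cd163l1 cells it stood at 0.95 (-0.19 to 2.40) and did not pass. Ifi27l2a rose from 493.7 to 1769.8 (1.84, 1.32 to 2.42). Ifit1, a binder of foreign RNA, was at 34.0 and 119.3 CPM (1.81, -0.07 to 4.87) and did not pass. In the FAPs the levels of Ifi27l2a were 81.8 and 634.4 CPM, in monocytes and macrophages 1630 and 1183, and in NK cells 55.2 and 78.8. Isg15 was at 97.6 and 259.3 CPM in FAPs, 66.3 and 204.0 in NK cells and 353.6 and 366.3 in monocytes and macrophages. Myofibre transcripts moved with this contrast too: the 9 genes of the myofibre list had 3 counts in the day 2 set and 1271 at day 7 (51.1 and 1106 CPM), and they made up 683.4 and 24890 CPM of the near-empty droplets of the libraries. Their part in the changes was not tested.

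Promoters are shown for Ifit1 and Ifit3, which were among the leading genes of cluster 7, and for Isg15, which rose in the CD3-positive set. In the 250 bases upstream of the RefSeq start (GRCm38.p6), the letters GAAANNGAAA, or TTTCNNTTTC on the other strand, a form of the interferon-stimulated response element, were searched on both strands with overlaps counted. They were found in 978 of 32851 promoters (2.98%). Of the 10 listed genes 6 had a promoter entry, of which Ifit1, Ifit3, Isg15 and Bst2 held the letters and Irf7 and Oasl2 did not. The stretches from 160 to 41 bases before the start follow, 5′ to 3′ on the strand of the gene, with the matches in capitals (Ifit1 at chr19:34640729-34640848, plus strand, Ifit3 at chr19:34583369-34583488, plus strand, Isg15 at chr4:156200859-156200978, minus strand).
Ifit1: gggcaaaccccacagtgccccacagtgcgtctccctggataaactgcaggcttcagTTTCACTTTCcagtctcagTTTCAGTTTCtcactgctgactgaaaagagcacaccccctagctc
Ifit3: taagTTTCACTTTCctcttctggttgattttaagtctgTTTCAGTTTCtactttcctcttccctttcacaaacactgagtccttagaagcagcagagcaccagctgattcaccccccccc
Isg15: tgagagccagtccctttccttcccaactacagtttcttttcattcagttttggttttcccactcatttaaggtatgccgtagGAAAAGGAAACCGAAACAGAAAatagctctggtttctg
Ifit1 and Ifit3 each held 2 separate matches, and Isg15 held 3 that overlapped.

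Set beside the 114 NK cells of day 7, whose annotation rests on the same genes so that the contrast is a description only, the T cells were higher in 287 of 3028 genes (9.48%) and lower in 148 (4.89%). Cd3g, Cd3d and Cd3e had 837, 802 and 364 counts in the T cells and 2, 4 and 3 in the NK cells. Cd8b1 had 506 and none, Cxcr6 187 and 2, Ctla4 279 and 8, and Tnfrsf4 222 and 1. The killing genes were lower in the T cells, with 10 of the 12 tested cytotoxic effectors lower and none higher, and all 11 tested genes of the NK list lower. Gzma, encoding granzyme A, was at 25.7 CPM in T cells and 2735 in NK cells (-6.73, -7.21 to -6.30), Gzmb at 117.7 and 444.4 (-1.92, -2.20 to -1.63) and Nkg7 at 624.0 and 1618 (-1.37, -1.51 to -1.24). Ccl5, at 3071 and 5956 CPM, differed by less than 2-fold (-0.96). The receptors Klra4, Klra8, Klri2, Ncr1 and Klrb1b of NK cells led the lower side, each with 1 to 7 counts in the T cells, and the Klra genes have close paralogues. Cell cycle genes were higher in T cells for 9 of 10 tested, beside 6 of 6 endothelial genes. The ranked genes 2810417H13Rik, a replication clamp factor, and Plxnd1, a guidance receptor of endothelium, were at 182.3 and 141.1 CPM in the T cells and 6.06 and 4.04 in the NK cells. Without the barcodes of 10 or more endothelial or macrophage counts, 154 genes were higher instead of 287, and Plxnd1 stood at 3.05 on the log2 scale instead of 5.13.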

How the data were processed

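Each library was dissociated muscle run on the 10x Chromium platform with version 3 chemistry. The authors deposited whole-number counts of unique molecular identifiers for 27998 genes of mm10 and, for the same barcodes, SoupX-corrected values, which are estimated counts. The submitters' processing notes name Cell Ranger 3.1.0 and Seurat 3.1.5, whereas the deposited count matrices carry 3.0.1 in their headers. The study's methods describe removal of ambient RNA and doublets before annotation, and no doublet caller was run here. T cell receptor and immunoglobulin genes (14 of 287 listed) were not analysed here, so a planned gate on Trdc could not be applied and the Cd163l1 gate replaced it after the data were seen.

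T cells were the barcodes so named in the authors' annotation table. Members, markers and gene lists were chosen with earlier results of these data known. Groups came from the day in the labels, with 1 library a day, so no count model could be fitted and no p-value is given. Raw counts were summed per group and divided by the group's total (CPM). Ratios have exact conditional binomial intervals, levels exact Poisson intervals, shares Clopper-Pearson intervals and differences of shares square-and-add intervals, all at 95%. A gene was called past 2-fold with its interval beyond 1, among genes of mean CPM of at least 50. A sum of 0 was bounded by a floor of 3 counts over the group. The genes named were those of the lists and, for each comparison, the 6 largest and 6 smallest ratios among genes with at least 30 counts in the higher group and found in at least 10% of its cells, leaving out mitochondrial, ribosomal protein, haemoglobin, immunoglobulin, myofibre, Xist, Y-linked and gating genes. Klrg1, Igf1r and other cluster genes were the 6 largest ratios to the other T cells. Clusters were Leiden clusters (resolution 0.8) of log-normalised counts with 1000 variable genes, 15 components and 12 neighbours (scanpy 1.11.5, leidenalg 0.10.2). Near-empty droplets were those of 1 to 100 counts. Intervals and calls were tested on simulated data. The simulated counts were independent Poisson draws without spread between barcodes, so the test cannot speak for genes whose counts lie in few barcodes. Gene coordinates are those of GENCODE for GRCm38, and promoters are from RefSeq. Alternatives were SoupX-corrected values, another scaling, a mean over cells, no filter, limits on barcodes (750 genes, 1000 counts, 30% mitochondrial), thinning, and the memberships given with each result.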

Additional observations from a re-analysis of the deposited data

Results flagged for a closer look

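T cell transcripts were also found in barcodes outside the annotation. At day 7, 21 of the 1473 called barcodes with no entry in the annotation table held 2 or more counts of Cd3e, Cd3d and Cd3g (1.43%, 0.885 to 2.17%), above the 0.204% of a floor of 3 barcodes, which is a counting floor and not a background rate. Their class had a median of 1066 counts, 14 of the 21 met the limits on barcodes, 4 held 10 or more endothelial or macrophage counts, and 9 held a CD8 gene. At day 2, 1 of 1299 such barcodes did. Among other annotated classes of day 7, the share was 2.63% in NK cells (3 of 114), 1.85% in Type IIb myonuclei (3 of 162) and 1.36% in dendritic cells (2 of 147). None of 495 pro-remodeling FAPs held 2 or more CD3 counts. The share of 1.43% therefore does not stand above that of every other class. The annotated T cells held 246 of the 282 called barcodes with 2 or more CD3 counts at day 7 (87.2%) and 23 of 28 at day 2 (82.1%).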

How the results depend on the processing

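No paired analysis was possible because each time point is 1 library. The depth limits the small groups: 21 CD3-positive cells at day 2, and 19 and 15 cells in the Foxp3 and Cd163l1 gates. SoupX-corrected values kept each count of called genes within 1.5 times and reversed no named gene. The T cell share at day 2 was 2.08% without neutrophils (no erythrocyte class was annotated), 1.01% without basophil-count barcodes and 0.601% in the CD3-positive set, where day 7 was 7.86%. With 2 or more UMIs, 1500 counts or the CD3-positive set, the gate shares that moved were 8.18% and 10.0% (CD4), 3.33% and 3.11% (Foxp3), 43.6% (CD8, CD3-positive set) and 55.5%, 51.9% and 31.6% (ungated). Genes called without the filter were 209 higher and 325 lower for CD8 against CD4, 258 and 243 for Foxp3 against CD4, and 665 and 944 for day 7 against day 2. Median-of-ratios scaling gave 99 higher for Foxp3, 198 higher and 298 lower for Cd163l1, and 305 higher for day 7 against day 2 in the CD3-positive set. Leaving out T cells with 3 or more counts of any other cell type's list, which keeps 142 of 330 (17 in the CD4 and 4 in each of the Foxp3 and Cd163l1 gates), gave 105 higher and 30 lower for Foxp3 and 213 and 40 for Cd163l1. It reversed the log2 ratio of Apoe for CD8 (0.26), and, on 2 to 11 counts a gate, of Cd74 and Ifng for Foxp3 (0.27 and 1.56). Of 24 named genes called in each of these comparisons, those with more than 3 counts on a side remained to be read, and it left 12 of 17 for Foxp3, 5 of 23 for CD8 and 5 of 21 for Cd163l1 without their call, beside those reversed. In the CD3-positive set, Cd74 and Lyz2 reversed for Foxp3 (0.10 and 0.14) and Ccl4 for day 7 against day 2 (2.59, and 1.18 without basophil-count barcodes). T against NK cells had 154 genes higher without endothelial-count and macrophage-count barcodes, and a Leiden resolution of 0.5 gave 6 clusters.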
